A study of Homo sapiens with 8 samples.

Results

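S100 genes encode small calcium-binding proteins, and 10 of them were examined in Alexander1 cells, an established epithelial line from a human hepatocellular carcinoma. They are S100A2, S100A3, S100A4, S100A6, S100A10, S100A11, S100A13, S100A14, S100A16 and S100P, out of 58206 genes in the count table. They were chosen by gene symbol with the levels and fold changes of these same 8 libraries known, and S100A11 was singled out for its levels, so the difference of any member between the groups is a description. Counts of members called are printed only beside the share over all genes, and nothing is read from them. Of the 10, 7 passed the expression filter, which asks for at least 10 counts in enough libraries after scaling for depth. S100A2, S100A3 and S100A6 did not pass it.

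The series concerns Axin1, a scaffold of the complex that degrades beta-catenin in the Wnt pathway. The 4 parental libraries carry the genotype label "wt (Axin1 -)": the line's own Axin1 lacks the region that binds the kinase GSK3. The other 4 libraries carry the label "Axin1 +" with Addgene plasmid 24928 and come from a stable derivative described as making full-length Axin1. One treatment text, a VSVG retroviral transfer followed by hygromycin B and clonal selection, stands on all 8 samples, and the labels do not say whether the derivative is 1 clone, so Axin1 and differences between clones cannot be told apart. AXIN1 mRNA was not higher in the libraries labelled restored, with 45.4 CPM ± 5.13 (CPM, counts scaled to the normalised library size; SD, n = 4) against 52.4 CPM ± 3.49 (SD, n = 4) and an edgeR adjusted p of 0.267. Whether reads from the plasmid's Axin1 were assigned to AXIN1 is not given in the sources used here, so this value does not show how much Axin1 the cells made. The libraries are therefore called restored-labelled throughout, and every direction rests on the labels. Nothing in the labels says that replicates came from separate cultures, so p-values measure only the spread between these libraries, which may be technical.

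S100 proteins form dimers that bind calcium through EF-hand motifs and then dock onto partner proteins, among them annexins and cytoskeletal proteins. Some are also released from cells and bind receptors such as the one encoded by AGER. Most of the genes sit in a cluster on the long arm of chromosome 1, interleaved with genes of the epidermal differentiation complex, and many are used as markers of epithelial tumours.

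Libraries held between 11232951 and 26400782 counts, so that 3 counts, taken here as the limit of what a library can show, correspond to between 0.108 and 0.267 CPM. Hepatocyte markers were present, with all 8 of the list above a mean of 1 CPM and a summed level of 20205 to 23838 CPM in parental and 16515 to 19605 CPM in restored-labelled libraries. Of the epithelial markers 4 of 5 had a mean of at least 1 CPM over the libraries, and EPCAM did not. KRT19 was among the 4, although it had only 2 counts each in restored-labelled replicates 2 and 4. The leukocyte markers summed to 483 to 975 CPM in parental and 870 to 1112 CPM in restored-labelled libraries, nearly all of it from LYZ and S100A9. PTPRC of the same list had at most 2 counts in any library. KRT14 and TP63, markers of squamous epithelium, had at most 3 over all 8. The summed endothelial markers were 4.54 to 6.77 CPM in parental and 34.1 to 58.5 CPM in restored-labelled libraries, nearly all of it from PECAM1, since CDH5 and VWF stayed at or under 0.248 CPM, and its part in the results was not tested. Parental replicate 1 stood apart from its group for several S100 genes and restored-labelled replicate 1 for S100A11, and values without these 2 libraries are given beside the results they move. These bulk libraries do not separate fewer cells with a transcript from less of it per cell.

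The promoter windows of 4 genes are shown, because S100A11 and S100A10 are neighbours that behaved differently, S100A6 was nearly undetected and S100A9 rose. Each window is from RefSeq on GRCh38.p14, where the start of S100A11 lies inside the longer span that GENCODE gives the gene, and runs from 250 bases before the gene's start to 50 after it, written 5′ to 3′ on the gene's strand. Capitals mark matches on either strand to the motifs searched. The TATA box was sought as TATAAA and the GC box of SP1 as GGGCGG. The TCF/LEF site was sought by its core CTTTGA or, in the other form, as CTTTGT, and the AP-1 site as TGANTCA.
S100A11, chr1:152036955-152037254, minus strand: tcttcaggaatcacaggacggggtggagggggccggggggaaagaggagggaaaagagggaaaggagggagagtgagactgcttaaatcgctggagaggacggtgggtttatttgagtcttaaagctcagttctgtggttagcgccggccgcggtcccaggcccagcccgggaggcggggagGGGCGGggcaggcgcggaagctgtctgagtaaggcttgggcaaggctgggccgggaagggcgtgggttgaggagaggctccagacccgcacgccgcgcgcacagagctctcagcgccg
S100A10, chr1:151993810-151994109, minus strand: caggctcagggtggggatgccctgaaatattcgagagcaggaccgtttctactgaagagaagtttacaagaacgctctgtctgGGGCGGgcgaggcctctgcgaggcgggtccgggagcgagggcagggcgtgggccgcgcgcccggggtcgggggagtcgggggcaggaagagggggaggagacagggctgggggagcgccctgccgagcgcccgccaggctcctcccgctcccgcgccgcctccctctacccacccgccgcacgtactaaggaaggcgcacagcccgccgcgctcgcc
S100A6, chr1:153535942-153536241, minus strand: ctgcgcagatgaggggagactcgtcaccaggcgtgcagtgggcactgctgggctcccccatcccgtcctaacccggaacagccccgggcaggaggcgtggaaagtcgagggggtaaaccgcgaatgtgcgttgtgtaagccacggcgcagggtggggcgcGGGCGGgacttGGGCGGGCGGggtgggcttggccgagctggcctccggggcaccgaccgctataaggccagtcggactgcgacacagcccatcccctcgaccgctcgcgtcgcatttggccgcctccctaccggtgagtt
S100A9, chr1:153357604-153357903, plus strand: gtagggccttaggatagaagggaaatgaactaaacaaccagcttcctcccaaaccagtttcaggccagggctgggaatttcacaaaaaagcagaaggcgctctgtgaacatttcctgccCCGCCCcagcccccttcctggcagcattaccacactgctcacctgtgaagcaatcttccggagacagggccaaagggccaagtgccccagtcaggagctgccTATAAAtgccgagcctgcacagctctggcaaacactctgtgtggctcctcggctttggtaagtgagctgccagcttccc
The windows of S100A11, S100A10 and S100A6 held 22, 32 and 31 CpG dinucleotides, against a median of 14 over 35114 promoters of the same length. That of S100A9 held 5. GGGCGG occurred once each in the windows of S100A11, S100A10 and S100A9 and 3 times in that of S100A6, where neighbouring matches overlap, and 45% of all promoters hold it. TATAAA stood 29 bases before the start of S100A9 and was not found in the other 3 windows, with 11.5% of all promoters holding it. Neither TCF/LEF core was found in these 4 windows, where 12.9% and 16.1% of all promoters hold CTTTGA and CTTTGT, and TGANTCA (7.71% of all promoters) was not found in them either. No match says only that these letters are absent from this window.

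S100A11 encodes calgizzarin, which pairs with annexin A1 and is known for roles in growth control and membrane repair in epithelial cells. The gene (ENSG00000163191) occupies 152032506 to 152047907 of chromosome 1 (GRCh38, GENCODE), on the minus strand and 38.12 kb from S100A10. Parental replicates 1 to 4 held 17130, 8561, 5333 and 4398 counts of S100A11, or 1525, 579.6, 475.1 and 314.7 CPM. Restored-labelled replicates 1 to 4 held 7205, 10, 213 and 13 counts, or 258.5, 0.826, 10.5 and 0.507 CPM. All 4 parental libraries were high. The restored-labelled ones ran from near the lowest parental library down to about the detection limit, and the groups did not overlap.

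Relative to the parental median of S100A11, restored-labelled replicate 1 stood at 49.0%, replicate 3 at 1.99%, replicate 2 at 0.157% and replicate 4 at 0.0962%. The spread of this gene was thus wide within both groups, 4.84-fold from lowest to highest in the parental and 509-fold in the restored-labelled libraries. The group means were 724 CPM ± 545 and 67.6 CPM ± 127 (SD, n = 4 each), and the log2 fold change fitted by edgeR, restored-labelled over parental, was -3.41 (SE 1.44). Without restored-labelled replicate 1 it was -7.48 (SE 1.09), and with that library and parental replicate 1 both left out it was -6.81 (SE 0.73). limma-voom, which averages on a log scale, gave -6.37 (SE 1.40), and a fit with the replicate number as a block -6.33 (SE 1.21). Without parental replicate 1 alone it was -2.75. The size of the difference therefore depended on which libraries and which kind of average were used. Its direction was downward in each of the 19 alternative analyses, which re-use the same libraries. As the groups did not overlap, this follows from the values themselves and is no separate support. The 8 annotated pseudogenes of S100A11 in the table held 3 counts in all, so that almost no reads were assigned to these copies in any library.

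Genes were called where the Benjamini-Hochberg adjusted p of the quasi-likelihood test in edgeR was below 0.05. Of the 7 tested members 0 were called, against 19.2% of the 14289 genes tested, and below 0.01 it was again 0, against 6.75%. At an unadjusted p under 0.05 there was 1 member, against 33.5% of all tested genes. DESeq2 called 0 members and 24.5% of all genes, and limma-voom 1 member and 19.8% of all genes. As the members were chosen with this contrast known, nothing is read from these counts. The values of 1 of the 7, S100A11, did not overlap between the groups, where 23.9% of all tested genes showed no overlap, 12.7% with the restored-labelled and 11.2% with the parental libraries higher. The median log2 fold change of the 7 members was -0.04, beside 0.00 over all tested genes, and without parental replicate 1 it was 0.30.

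**Figure D1:**
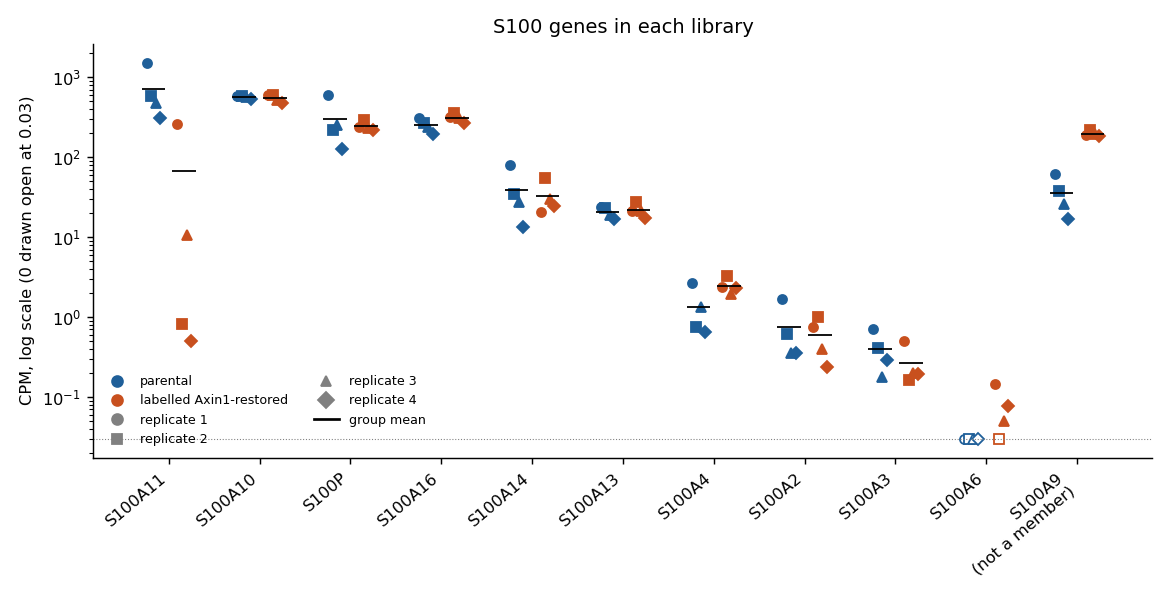
CPM on a log scale for the 10 S100 members and for S100A9, which is not a member, in each of the 4 parental and 4 restored-labelled libraries; marker shapes give the replicate, bars the group mean (none drawn for S100A6), and open symbols libraries with 0 counts. S100A11 runs from 1525 CPM down to 0.507 CPM, S100A10 stays between 477.0 and 609.2 CPM, and S100A9 is higher in every restored-labelled library.

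S100A10, also called p11, is the family member that has lost calcium binding and forms a complex with annexin A2 at the plasma membrane. It was the steadiest of the abundant members. S100A10 (ENSG00000197747, chromosome 1, 151982915 to 151994390) stood at 578.0, 589.3, 562.8 and 529.8 CPM in parental replicates 1 to 4 and at 602.8, 609.2, 516.9 and 477.0 CPM in the same order of the restored-labelled ones. The groups overlapped, and the coefficient of variation was 4.58% and 11.8%. The log2 fold change of S100A10 was -0.04 (SE 0.13), and it ranged from -0.08 to 0.03 when single libraries were left out. The family gene nearest to S100A11 thus stayed at a similar level in the libraries in which S100A11 was near the detection limit.

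ANXA2, the partner of S100A10, averaged 1259 CPM ± 207 in the parental and 1265 CPM ± 148 in the restored-labelled libraries (SD, n = 4 each; log2 fold change 0.01, SE 0.16, edgeR adjusted p = 0.982). Per kilobase of exon, S100A10 was 2.16 to 2.92 times as high as ANXA2 in the parental and 2.45 to 2.56 times in the restored-labelled libraries. With the longest transcript of each gene as its length, the restored-labelled ratios were 1.26 to 1.32, so the level of either gene relative to the other rests on the length used. AHNAK, a giant scaffold protein that binds this complex, was 0.23 higher on the log2 scale (SE 0.12) and did not pass (edgeR adjusted p = 0.222).

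S100P, first described in placenta and known to bind ezrin, lies apart from the cluster on chromosome 4, from 6693069 to 6697170 (ENSG00000163993). Its levels were 600.0, 220.2, 253.0 and 126.7 CPM in the parental and 238.6, 292.2, 234.1 and 220.0 CPM in the restored-labelled libraries. Parental replicate 1 was the highest and parental replicate 4 the lowest of all 8, and the restored-labelled values lay between them. The log2 fold change of S100P was -0.28 (SE 0.37), and without parental replicate 1 it was 0.30. Genes for proteins that bind S100P were measured too. The log2 fold change of EZR, encoding ezrin, was 0.08 (SE 0.12), that of IQGAP1 0.09 (SE 0.15) and that of S100PBP 0.03 (SE 0.16). None of these 3 passed the test, with edgeR adjusted p between 0.699 and 0.909.

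S100A14 and S100A16 are close relatives found in many epithelia. S100A14 (ENSG00000189334, chromosome 1, 153614255 to 153616986) stood at 79.1, 34.9, 27.9 and 13.4 CPM in the parental and 20.7, 55.8, 30.2 and 24.8 CPM in the restored-labelled libraries. The groups overlapped, and the log2 fold change of S100A14 was -0.25 (SE 0.46), or 0.36 without parental replicate 1. S100A16 (ENSG00000188643, chromosome 1, 153606886 to 153613145) was more even, at 310.3, 271.8, 238.6 and 196.2 CPM against 317.7, 363.0, 312.5 and 265.8 CPM. Most restored-labelled values of S100A16 lay above the parental ones, but the lowest of them was under the highest parental values. Its log2 fold change was 0.31 (SE 0.16).

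S100A13, which takes part in the release of FGF1 from cells by a route that bypasses the secretory pathway, stood at 24.2, 23.5, 19.1 and 16.7 CPM in the parental and 21.3, 27.5, 21.1 and 17.6 CPM in the restored-labelled libraries. The groups overlapped almost fully, with a log2 fold change of 0.06 (SE 0.18). Exons of S100A13 (ENSG00000189171, chromosome 1, 153618787 to 153631360) share 235 bases with S100A1 on the opposite strand, and whether counting used strand is not given in the sources used here. FGF1 itself was not tested, with a mean of 0.0402 CPM in parental libraries and no count in restored-labelled ones.

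S100A4, a binder of non-muscle myosin known for its link to cell migration and metastasis, was low throughout. Its counts were 30, 11, 15 and 9 in the parental and 67, 39, 39 and 60 in the restored-labelled libraries, that is 2.67, 0.745, 1.34 and 0.644 CPM against 2.40, 3.22, 1.92 and 2.34 CPM. S100A4 (ENSG00000196154, chromosome 1, 153543613 to 153550136) was low in parental replicates 2 to 4, whereas parental replicate 1 lay within the restored-labelled range. The log2 fold change was 0.89 (SE 0.43), and without parental replicate 1 it was 1.45 (SE 0.35).

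The remaining members were at the edge of detection. S100A2, a keratinocyte protein, had 19, 9, 4 and 5 counts in the parental and 21, 12, 8 and 6 in the restored-labelled libraries. S100A3, a protein of the hair cuticle, had 8, 6, 2 and 4 against 14, 2, 4 and 5 counts. S100A6, calcyclin, a protein linked to proliferation and abundant in many epithelial and mesenchymal cells, had 0 counts in each parental library and 4, 0, 1 and 2 counts in the restored-labelled ones. A count of 0 allows up to 3 counts, or 0.267 CPM in the shallowest of these libraries, and no fold is given. Its binding partner CACYBP was present at 139 and 146 CPM and did not pass the test (edgeR adjusted p = 0.707).

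Levels of different genes can be compared per kilobase of exon. In the parental libraries S100A11 ranked first at 1064 CPM per kb ± 802 (SD, n = 4), followed by S100A10 at 366 ± 16.8, S100P at 234 ± 162 and S100A16 at 149 ± 28.6 CPM per kb. S100A10 and S100P overlapped in their parental range, as did S100P and S100A16, whereas the lowest S100A11 value was above the highest of S100A10. S100A14 and S100A13 followed at 30.4 and 9.42 CPM per kb, and S100A4, S100A2, S100A3 and S100A6 were at or under 1.32 CPM per kb. In the restored-labelled libraries S100A10 ranked first at 357 ± 42.2 CPM per kb, and S100A11 ranked after S100P and S100A16, with a mean of 99.4 ± 187 CPM per kb that rests on replicate 1. S100P and S100A16 came between at 192 ± 24.7 and 185 ± 23.4 CPM per kb, overlapping each other, and their order was the reverse with the longest transcript as length (193 and 275 CPM per kb).

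The make-up of the family shifted accordingly. S100A11 made up 44.5% to 67.02% of the members' summed CPM per kb in the parental libraries, 32.4% in restored-labelled replicate 1, and 0.112% to 2.05% in the other restored-labelled libraries. S100A10 made up 11.2% to 33.02% in the parental and 33.3% to 46.3% in the restored-labelled libraries. With S100A11 left out, the members' summed CPM was 1597, 1142, 1103 and 884.1 in the parental and 1205, 1352, 1117 and 1008 in the restored-labelled libraries, and the groups overlapped. These shares are parts of a whole, so a lower level of S100A11 raises the share of every other member.

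The parental libraries differed among themselves in the same direction for most members. Of the 7 tested members, 6 were highest in parental replicate 1 and lowest in parental replicate 4 among the parental libraries, an order that 16.8% of all tested genes showed. In 4 of the 7 (S100A4, S100A11, S100A14 and S100P), parental replicate 1 was at least 2-fold above the median of the other parental libraries, by 3.59, 3.21, 2.84 and 2.72-fold. That gap was seen in 7.97% of all tested genes. All 10 members are short and GC-rich, and the 1748 tested genes with less than 2500 bases of exon and at least 50% GC had a median deviation from the mean of all 8 libraries of 0.27 on the log2 scale in parental replicate 1, where that of all tested genes was near 0. The part of this in the members' values was not tested. With an offset that removes each library's trend with length and GC content, the log2 fold changes were -3.17 for S100A11, -0.19 for S100P, -0.17 for S100A14 and 1.00 for S100A4.

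**Figure D2:**
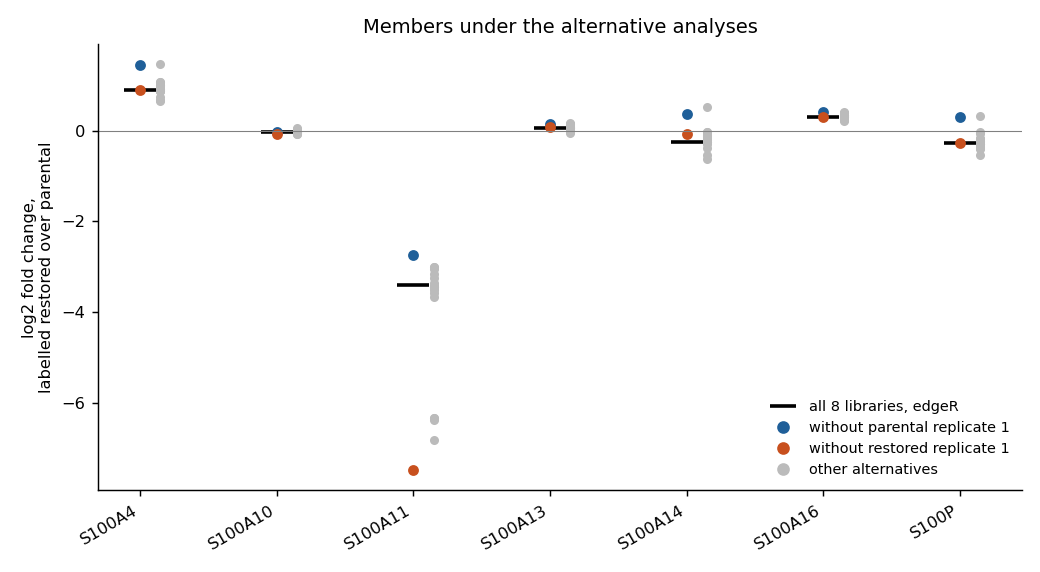
Log2 fold change, restored-labelled over parental, of the 7 tested members with all 8 libraries (black bar), without parental replicate 1 (blue), without restored-labelled replicate 1 (orange) and in the other alternative analyses (grey). S100A11 lies between -7.48 and -2.75, S100P and S100A14 change sign without parental replicate 1, and S100A10 stays near 0.

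The family genes outside the list of 10 were mostly silent, with S100A9 the exception. S100A9 encodes a subunit of calprotectin, an inflammatory protein best known from neutrophils and monocytes. S100A9 (ENSG00000163220, chromosome 1, 153357854 to 153361027) read 61.3, 37.9, 26.01 and 16.8 CPM across the parental and 192.7, 218.3, 197.6 and 183.1 CPM across the restored-labelled libraries. Every restored-labelled library was above every parental one, including replicate 1, which kept S100A11. S100A9 rose from a mean of 35.5 CPM (SD 19.2, n = 4) to 198 CPM (SD 14.8, n = 4), by 2.48 on the log2 scale (SE 0.32, edgeR adjusted p = 0.000635). The leukocyte marker list, which holds S100A9 itself, had LYZ at 421 to 949 CPM in the parental and 672 to 919 CPM in the restored-labelled libraries, CD14 at or under 0.534 CPM and PTPRC and S100A12 at or near 0. S100A9 passed the test in all 19 alternative analyses, with a log2 fold change between 2.25 and 2.89.

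S100A8, the usual partner of S100A9 in calprotectin, was read 1, 0, 0 and 0 times in the parental and 1, 1, 0 and 4 times in the restored-labelled libraries. The partner transcript was thus at or near the detection limit in libraries with up to 5371 counts of S100A9. Of the other family genes, S100A1 averaged 0.804 and 0.687 CPM in the parental and restored-labelled libraries and did not pass (log2 fold change -0.25, SE 0.34, edgeR adjusted p = 0.653). S100A5, S100A7, S100A7A, S100A7L2, S100A12, S100B, S100G and S100Z had at most 1 count in any library.

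Annexins bind membranes in a calcium-dependent way and several of them recruit S100 dimers. Of 13 annexin genes, 9 were tested, and the test called 3 of them higher and 0 lower in the restored-labelled libraries. The percentage called was 33.3% of those tested, where 10.4% of all tested genes were called higher and 8.77% lower, and the median log2 fold change of the 9 was 0.04. ANXA1, the annexin that S100A11 binds, stood at 43.5, 11.2, 15.9 and 8.66 CPM in the parental and at 59.1, 98.1, 88.9 and 90.4 CPM in the restored-labelled libraries. The groups did not overlap, although parental replicate 1 and restored-labelled replicate 1 lay nearest to each other. ANXA1 (ENSG00000135046) rose by 2.09 on the log2 scale (SE 0.43, edgeR adjusted p = 0.00812), or by 2.83 without parental replicate 1. S100A11 and ANXA1 thus lay in opposite directions between the groups, whereas within the parental group replicate 1 was the highest and replicate 4 the lowest for both.

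ANXA3 ranged from 5.65 to 18.7 CPM in the parental libraries and from 44.4 to 61.3 CPM in the others, and rose by 1.83 on the log2 scale (SE 0.30, edgeR adjusted p = 0.00235). ANXA13, an annexin of intestinal and other epithelia, averaged 11.1 CPM (SD 4.38, n = 4) and 20.3 CPM (SD 0.788, n = 4), and rose by 0.87 on the log2 scale (SE 0.25, edgeR adjusted p = 0.0316). That call was lost without parental replicate 3 or 4 or without restored-labelled replicate 2, 3 or 4, with edgeR adjusted p up to 0.0797. ANXA2, ANXA4, ANXA5, ANXA7, ANXA9 and ANXA11 did not pass the test, and ANXA6, ANXA8, ANXA8L1 and ANXA10 were below the expression filter.

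**Figure D3:**
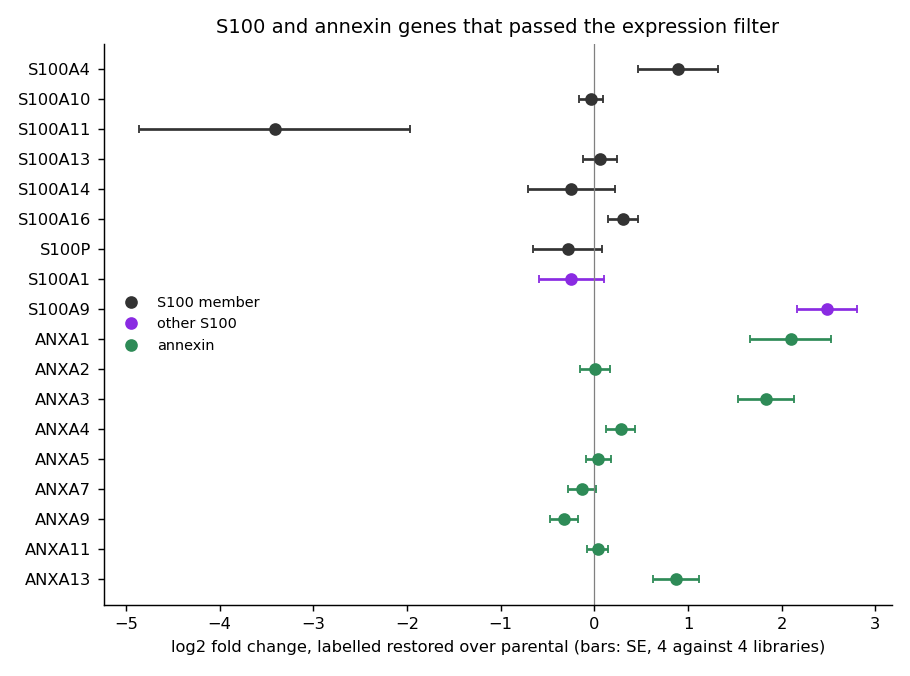
Log2 fold change, restored-labelled over parental, with its standard error (bars, 4 against 4 libraries) for the 7 tested S100 members, S100A1, S100A9 and the 9 tested annexins. S100A11 lies at -3.41 with the widest bar (SE 1.44), and S100A9, ANXA1 and ANXA3 lie at 2.48, 2.09 and 1.83.

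Other proteins that S100 dimers bind formed a list of 27 genes, 23 of them tested. The test called 2 higher and 2 lower (17.4% of those tested, beside 19.2% of all genes), with a median log2 fold change of -0.06. PPP5C, a phosphatase bound by S100A6, was higher (log2 fold change 0.51, SE 0.13, edgeR adjusted p = 0.0189). MYH14, a non-muscle myosin heavy chain of the class S100A4 binds, was also higher (0.42, SE 0.11, edgeR adjusted p = 0.0235). CAPZB, an actin-capping subunit, was lower (-0.42, SE 0.12, edgeR adjusted p = 0.0363), named after its value was seen. MYH9, the myosin most often tied to S100A4, stood at 727 and 696 CPM and did not pass (edgeR adjusted p = 0.818).

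The count of partner genes called changed when single libraries were left out. It was 0 without parental replicate 2, without parental replicate 3 or without restored-labelled replicate 4. It was 1 without restored-labelled replicate 3, and 7 without parental replicate 1. Calls over all tested genes changed in the same direction. Their share fell from 19.2% to 9.71% without restored-labelled replicate 4 and rose to 24.1% without parental replicate 1. In each setting with 0 or 1 partner genes called, that share was also below 19.2%. The counts therefore do not show that partner calls were less stable than calls over all genes. The calls for PPP5C and MYH14 were lost in 4 and 6 of 19 alternative analyses, among them for MYH14 the replicate block (edgeR adjusted p = 0.0667). Exons of PPP5C overlap those of ENSG00000269151 on the opposite strand by 188 bases.

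Receptors for released S100 proteins were mostly below the filter or did not pass the test, and 1 of 6 tested was called (16.7%, beside 19.2% of all genes). AGER, encoding the receptor RAGE, stood at 20.02, 6.03, 6.50 and 5.73 CPM in the parental and 5.74, 6.11, 4.29 and 3.90 CPM in the restored-labelled libraries. Only parental replicate 1 was high, and the other libraries overlapped. The log2 fold change of AGER was -0.93 (SE 0.40, edgeR adjusted p = 0.128), and -0.29 without parental replicate 1. TLR4 and CD36 were nearly undetected, at or under a mean of 0.0330 CPM. Without an expression filter AGER was called. ERBB2 was the gene called, higher by 0.42 on the log2 scale (SE 0.11, edgeR adjusted p = 0.0225). That call was lost without parental replicate 2, parental replicate 3 or restored-labelled replicate 3 and with the replicate block (edgeR adjusted p up to 0.0858), and exons of ERBB2 overlap those of MIEN1 and PGAP3 on the opposite strand. ALCAM did not pass (log2 fold change -0.51, SE 0.19, edgeR adjusted p = 0.0913) but did without parental replicate 1 (-0.64, edgeR adjusted p = 0.0160).

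Whether genes around the S100 cluster moved with S100A11 was asked next. The 17 S100 genes of chromosome 1 span 1649 kb, from 151982915 to 153632039, and 9 of the 10 members lie there. The single tested gene outside the family that touches this span, ENSG00000272030, overlaps only its far end. Of 41 neighbours (that gene and the 20 nearest tested genes on either side), 0 were called higher or lower by edgeR, beside 19.2% of all tested genes, and 6 had an unadjusted p under 0.05, beside 33.5%. DESeq2 called 2 of the 41, beside 24.5% of all genes. The median log2 fold change of the 41 was -0.04. On the S100A10 side they start between -890 and -127 kb relative to the start of S100A11, and on the other side between 1597 and 2184 kb. They are thus neighbours of the cluster as a whole, and none lies close to S100A11 itself. The neighbours with the smallest p-values were TDRKH (0.55, SE 0.19), C1orf43 (-0.33, SE 0.12) and the gene ENSG00000282386 (-0.75, SE 0.27), with edgeR adjusted p between 0.0640 and 0.0793. Exons of TDRKH overlap those of TDRKH-AS1 and OAZ3 on the opposite strand. S100A11 and S100A9, the family genes with the largest fold changes in either direction, start 1321 kb apart by RefSeq. S100A10, whose start stands at -43.15 kb relative to that of S100A11, stayed level within the spread of its libraries.

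**Figure D4:**
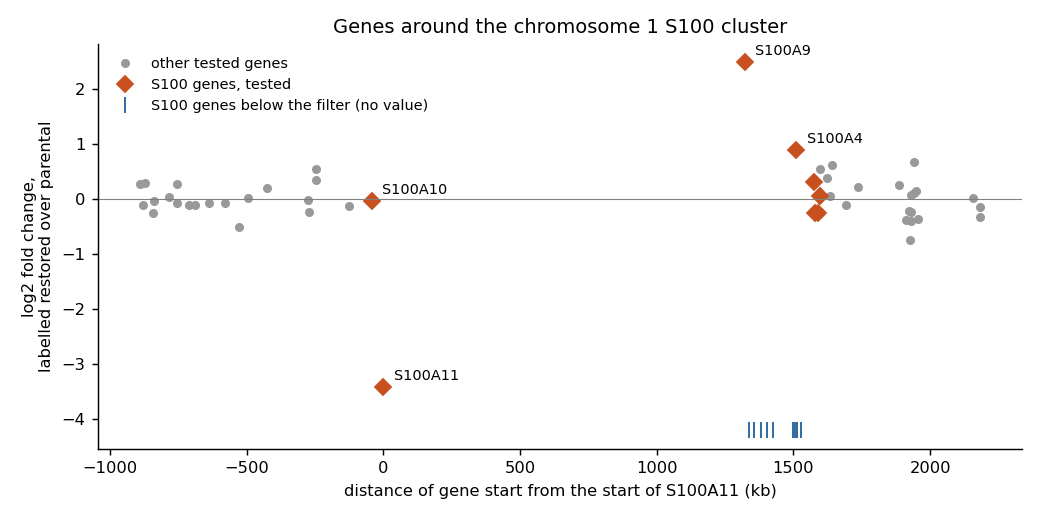
Log2 fold change, restored-labelled over parental, of tested genes by the distance of their start from that of S100A11 in kb, for S100 genes (orange diamonds) and 41 other tested genes (grey); blue ticks at the bottom mark S100 genes below the expression filter, which have no value. S100A11 at -3.41 and S100A9 at 2.48 stand away from their neighbours.

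The genes whose pattern over the 8 libraries came nearest to that of S100A11 were looked up by the root mean square difference of log2 CPM after subtracting each gene's mean, among 9371 other genes with a mean of at least 10 CPM. This likeness holds the group difference and the shared libraries, and it says nothing of shared function. Of the 5 nearest, 4 are described. COL21A1, a collagen gene on chromosome 6, lay at 1.08 on the log2 scale, with 49.3 to 70.8 CPM in the parental libraries and 9.90, 0, 0.345 and 0.0390 CPM in the restored-labelled ones, in the order of their numbers. CGA, FABP1 and DSE followed at 2.07, 2.27 and 2.30. They encode the alpha subunit of glycoprotein hormones, the liver fatty acid-binding protein and an epimerase of dermatan sulfate. Exons of DSE overlap those of TSPYL1 on the opposite strand by 589 bases. In each of these 4 genes restored-labelled replicate 1 was the highest of its group, which the choice by likeness to S100A11 favours.

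Genes with the pattern of S100A11 were counted. The pattern was written from that gene's own values, so the counts are a description and do not set S100A11 apart. With a minimum of 4-fold, chosen after the values were seen, 12 of 9372 genes, S100A11 among them, had it. They were high in the parental libraries and in restored-labelled replicate 1 and low in the other restored-labelled libraries, and 8 showed the mirror image. With a minimum of 8-fold there were 4, COL21A1, LCP1 and S100A11 among them, against 3 of the mirror kind. Of the 23 genes at least 4-fold lower in restored-labelled replicates 2 to 4 than in every parental library, restored-labelled replicate 1 stood between 2.78% and 155% of the parental median, with a median of 48.7%, and S100A11 at 49.0%. Some tissue markers, named after their values were seen, also set restored-labelled replicate 1 apart from the other restored-labelled libraries. The epithelial keratin gene KRT19 was higher in it (34.4 CPM, against at most 1.43 CPM). Among the hepatocyte markers, ALB, the albumin gene, was lowest of the group in that library (13.8 CPM, against 445 to 681 CPM). APOA1, TTR, HNF4A and FGB were also lowest there. AFP, the fetal counterpart of albumin, was highest (311 CPM, against 79.7 to 146 CPM), and APOB and SERPINA1 lay between.

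**Figure D5:**
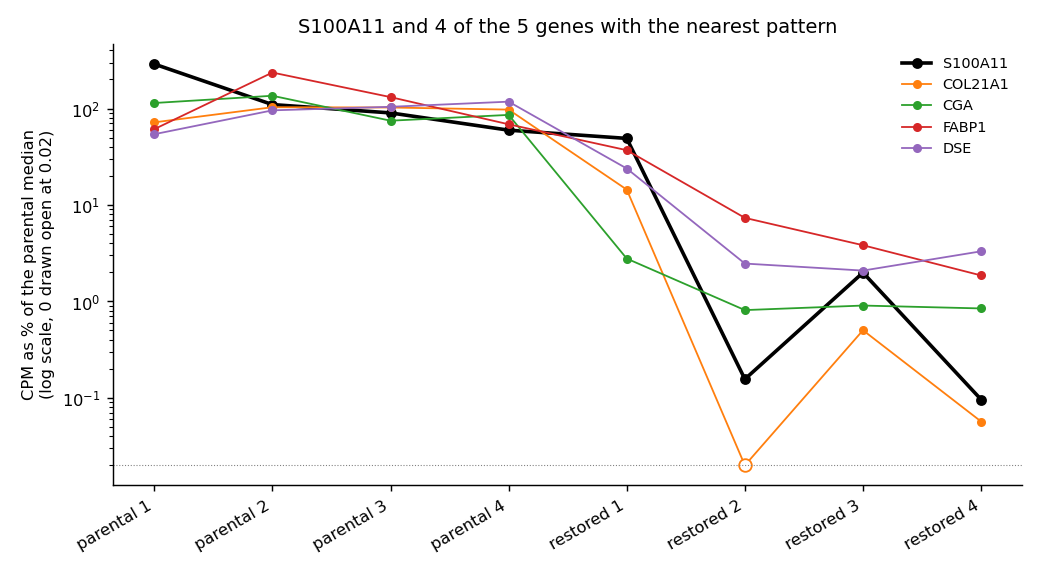
CPM of S100A11 (black) and of 4 of the 5 genes with the nearest pattern, as a percentage of each gene's parental median on a log scale, in the 8 libraries; lines only join the values of 1 gene, and open symbols mark 0 counts. S100A11 is at 49.0% in restored-labelled replicate 1 and at 1.99% or less in restored-labelled replicates 2 to 4.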

How the data were processed

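RNA sequencing of mRNA libraries (KAPA mRNA HyperPrep kit, per the labels' protocols) covered 4 parental and 4 restored-labelled samples of Alexander1 cells, grouped and numbered by their titles. The values the authors deposited are raw counts for each gene in each library; they are whole, and their totals differ between libraries. Per the submitters' processing notes, bcl2fastq, fastp 0.23.1, STAR 2.7.4 and GRCh38 were used; how reads were assigned to genes, with which annotation and whether by strand, is not given in the sources used here. Each of the 8 columns matched a sample by its label, and 0 columns belonged to none.

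Identifiers were matched to GENCODE 29 on GRCh38 (57943 of 58206 found), the source of coordinates, lengths and GC content, and to a symbol table (57495). In R 4.3.3, edgeR 4.0.16 kept 14289 genes by filterByExpr (minimum count 10, total 15), scaled libraries by TMM (factors 0.897 to 1.063; 99.75% to 99.85% of counts in tested genes) and compared the groups by the quasi-likelihood test without covariates, with two-sided p-values adjusted by Benjamini-Hochberg over all tested genes. Each SE from edgeR is the size of the fold change (log2) divided by the root of the F statistic, and that of limma-voom is the standard error of its own fit. Log2 CPM used a prior count of 2. The limit of 3 counts covers counting error only. The edgeR test was checked on simulated counts, where the DESeq2 alternative made more false calls than edgeR. These counts were drawn independently with the dispersions that edgeR estimated, and no simulated library stood apart from its group. The check therefore does not cover libraries such as restored-labelled replicate 1 and does not rank the 2 tests for these data.

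The members and lists were chosen with earlier results of these data known. Named genes are the members, S100 genes with at least 10 counts, AXIN1, ANXA1, ANXA2, the 3 smallest p-values per list and the 5 patterns nearest S100A11; other list and marker genes are named as roles of members or after their values were seen, and 2 genes that the rule names are not reported here. Alternatives were scaling by total counts alone, by upper quartiles or by the size factors of DESeq2 1.42.0; a filter at a mean of 1 CPM or none; the Wald test of DESeq2; limma-voom (limma 3.58.1); the replicate block; a length and GC offset (splines with 5 degrees of freedom, with and without the block), an adjusted p under 0.01, the longest transcript as length and leaving out each library; leaving out both libraries numbered 1 was chosen after seeing the data.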

Additional observations from a re-analysis of the deposited data

Results flagged for a closer look

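In 4 of 50 groups of 4 libraries examined, 1 library lay far from the other 3 by Dixon's ratio. This is the gap to the nearest value over the group's range, called far above its 95% critical value. Chance gives about 1 in 20 for normally distributed values of genes chosen without regard to those values. The ratio was taken on CPM, which need not be distributed in that way. The members and lists were chosen with these data known, so that rate is no yardstick for them. S100A11 in the restored-labelled libraries had a ratio of 0.961, with replicate 1 at 258.5 CPM and the others at 10.5 CPM or less. S100A3 in the same libraries had 0.905, from 14 counts in replicate 1, the deepest library, against 2 to 5. It is below the expression filter, and counts this low vary widely by counting error alone. AXIN1 had 0.939, with restored-labelled replicate 4 the lowest at 37.7 CPM. AGER in the parental libraries had 0.946, with replicate 1 at 20.02 CPM and the others between 5.73 and 6.50 CPM.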

How the results depend on the processing

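Of the members' log2 fold changes, that of S100A11 moved by more than the spread between replicates in 5 of 19 alternative analyses, all with a larger decrease, and the other 6 and the members' median did so in none. The number of members called was 0 and became 1 with no expression filter, with limma-voom, with the replicate block and with the length and GC offset plus replicate block (10.6%, 19.8%, 14.2% and 18.6% of all genes called), 2 without both libraries numbered 1 (32.3% of all genes called), and 0 to 1 with single libraries left out (9.71% to 24.1%); the members were chosen on this contrast, so nothing is read from these counts. Over all genes, 2738 were called; 964 at an adjusted p under 0.01, 4623 without both libraries numbered 1, and 1394 to 3523 with single libraries left out. Of those called, 54.2% were higher, against 66.5% with total counts as the only scaling, 47.3% with the length and GC offset and 48.4% with that offset and the block. Partner genes called (4) became 2 with total counts only, 2 with the replicate block, 7 with the length and GC offset, 9 without both libraries numbered 1 and 0 to 7 with single libraries left out. Receptor genes called (1) became 2 with no filter, 0 with the replicate block, 2 with the length and GC offset with or without the block, 4 without both libraries numbered 1 and 0 to 2 with single libraries left out. Neighbours called (0) became 2 with DESeq2, 1 with the offset with or without the block, 4 without both libraries numbered 1 and 0 to 2 with single libraries left out. Of all tested genes, 24.5% were called with DESeq2, 22.5% with the offset alone and 18.1% with total counts only, beside 19.2% in the main fit. The shares given above for the members' other settings hold for these lists too. The cause of the changes in these counts was not tested. The labels do not say that replicate numbers pair the samples: deviations from the group means correlated at -0.0629, 0.00667, -0.0325 and 0.227 for numbers 1 to 4, and parental replicate 1 went best with restored-labelled replicate 2 (0.448). With the replicate block 2033 genes were called. S100A2, S100A3 and S100A6 have too few counts for a fold change, and no depth here can show a level under 3 counts per library.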
